A study of Bos taurus with 6 samples.

Results

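The mitochondrial ribosomal proteins were examined in back muscle of cattle fed with or without added vitamin A. They were taken as all genes whose array annotation gave a single symbol beginning with MRPL or MRPS and a digit. This gave 84 of 24016 tested probe sets and 67 of 9155 genes, 43 of the large ribosomal subunit (MRPL symbols) and 24 of the small subunit (MRPS symbols). Where a gene had several probe sets, the one with the highest mean over the 6 arrays represented it. All 67 genes had a current record in the ARS-UCD2.0 cattle annotation, which lists 78 protein coding MRPL and MRPS genes. The other 11, MRPL1, MRPL17, MRPL33, MRPL40, MRPL47, MRPL54, MRPS10, MRPS12, MRPS18C, MRPS21 and MRPS33, were not analysed here.

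Mitochondria carry their own ribosomes, which translate the few messenger RNAs of mitochondrial DNA into membrane subunits of the respiratory chain and the ATP synthase. All proteins of this ribosome are encoded in the nucleus, made in the cytosol and imported. The small subunit binds the messenger RNA and decodes it, and the large subunit joins the amino acids and releases the chain at the inner membrane. Skeletal muscle, with its high demand for ATP, depends on this translation, and in humans variants in several of these genes cause respiratory chain deficiency with muscle or heart disease.

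The restricted group comprised 3 Japanese Black steers without vitamin A supplementation, and the supplemented group 3 steers given 296.8 IU per kg body weight by mouth every week. All 6 were castrated males that entered at 13 to 14 months of age and were fattened for 7 months, and longissimus thoracis muscle was taken from each. Ages at sampling were 589, 595 and 611 days in restricted steers 1 to 3, and 600, 612 and 618 days in supplemented steers 1 to 3. Each array held a different steer, so the tests measure the spread between steers of a diet. The arrays hold whole muscle, in which fewer cells of a type and less RNA per cell cannot be told apart.

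Skeletal muscle markers such as creatine kinase and the troponins were measured with 9 of 11 genes, at deposited values from 10.6 to 12.7, against a median of 5.33 for all genes. The 67 mitochondrial ribosomal protein genes had deposited mean values from 5.34 to 8.25, and all 67 passed a filter at the first quartile of level. Values were taken as log2 values, but the 6 arrays lay very close together for a reason the sources used here do not state. The highest and lowest steer of a mitochondrial ribosomal protein gene were a median of 6.35 millionths (1e-06) of a deposited log2 unit apart, with a range of 0.094 in MRPL46 to 172 in MRPL35. The medians of whole arrays were 8.88 millionths apart, which is more than the full range of 37 of the 67 genes. Steers are therefore given as deviations from the mean of the gene in millionths of a deposited log2 unit, and no difference is read as a fold change. Diet effects are restricted minus supplemented, in these units and in within-group standard deviations (SDs) of the same gene.

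In the comparison of the diets, 45 of the 67 genes had a higher mean in restricted steers and 22 a lower one, a share of 67.2% against 49.5% of all 9155 genes. The median difference was 0.247 SDs in the 67 genes and -0.00787 SDs in all genes. No mitochondrial ribosomal protein gene was past the limma adjusted threshold of 0.05, each having an adjusted p of 1.0. Over all genes 0.0109% passed, a single gene, DHRS3, which encodes an enzyme that reduces retinal to retinol. At an unadjusted limma p under 0.05, 1 of the 67 genes was higher (1.49%) and 0 were lower, where 2.15% of all genes were higher and 2.47% lower. The groups did not overlap in 2 of the 67 genes, both higher in restricted steers (2.99%), against 4.15% of all genes higher and 4.59% lower. The shares of called and of non-overlapping genes were thus no higher than the background of the array. With counts this small no shortfall is read from them. Among differences of more than 1 SD, 13 of the 67 genes were higher and 1 was lower (19.4% and 1.49%), against 12.1% and 13.8% of all genes.

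Large and small subunit genes did not stand far apart. Of the large subunit genes 27 of 43 were higher in restricted steers (62.8%) with a median difference of 0.247 SDs. Of the small subunit genes 18 of 24 were higher with a median of 0.217 SDs. Differences ran from -1.19 to 1.41 SDs in the large and from -0.730 to 2.58 SDs in the small subunit. In the large subunit 35 of 43 genes and in the small subunit 18 of 24 differed by at most 1 SD. The groups did not overlap in 2 of 24 small (8.33%) and 0 of 43 large subunit genes, against 4.15% of all genes on the higher side. The difference between the subunits was not tested.

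The lean depended on single steers. Without supplemented steer 1 only 33 of 67 genes were higher (49.3%, against 47.9% of all genes) and the median difference was -0.000794 SDs. Without supplemented steer 3 there were 60 of 67 (89.6%, against 51.8% of all genes) with a median of 0.941 SDs, and 9 of the 67 genes had an unadjusted limma p under 0.05 (13.4%, against 5.75% of all genes). Those 9 were MRPL2, MRPL3, MRPL12, MRPL32, MRPL43, MRPL45, MRPS14, MRPS22 and MRPS25, none with an adjusted p under the threshold. After array medians were made equal, 15 of 67 genes were higher (22.4%) against 10.8% of all genes, and the median difference turned to -0.351 SDs in the 67 genes and -0.737 SDs in all genes. That scaling lowered the diet difference of all genes by the same amount, on arrays whose medians lie further apart than the median range of all genes, 1.23 millionths. The turn in sign therefore says nothing about these genes in particular. Their share and median stayed above those of all genes. The same shift is fewer SDs in genes with a wider range, however, and the median range of these genes was 6.35 millionths. Staying above all genes is thus not read as a trait of these genes.

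**Figure D1:**
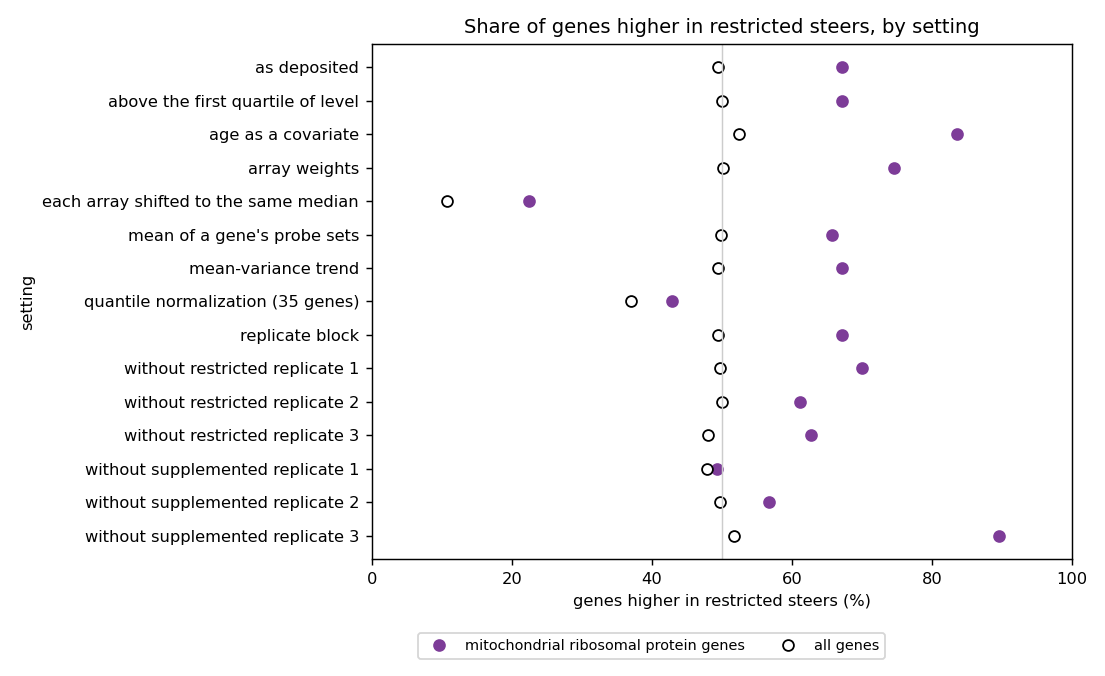
Share of genes with a higher mean in restricted steers (horizontal axis, percent) under each processing setting (vertical axis), for mitochondrial ribosomal protein genes (filled) and all genes tested in that setting (open). The filled points run from 22.4% with equal array medians to 89.6% without supplemented steer 3, against 67.2% as deposited; under quantile normalization 35 of the 67 genes could be tested.

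MRPS14, a conserved protein of the head of the small subunit, had the smallest p of the group. Its representative probe set, with a mean deposited value of 6.8375, stood at 5.88, 0.344 and 5.30 millionths in restricted steers 1 to 3, against -7.18, -2.54 and -1.81 millionths in supplemented steers 1 to 3. All 3 restricted steers lay above all 3 supplemented ones, restricted steer 2 by the smallest margin. The difference was 7.68 ± 2.30 millionths (SE) or 2.58 SDs (limma unadjusted p = 0.0242, adjusted p = 1.0). It was 2.13 SDs without restricted steer 1 (limma unadjusted p = 0.0749), 2.12 SDs without restricted steer 3 (limma unadjusted p = 0.0762) and 2.40 SDs without supplemented steer 1 (limma unadjusted p = 0.0553), so the unadjusted call did not hold without these steers. Without restricted steer 2 it was 3.94 SDs (limma unadjusted p = 0.0133), and with equal array medians 1.28 SDs (limma unadjusted p = 0.148). The other MRPS14 probe set stood at 3.01, 0.803 and 1.13 millionths in restricted steers and at -2.82, -0.979 and -1.14 millionths in supplemented steers. It too showed no overlap, with a difference of 2.97 SDs (limma unadjusted p = 0.0148, adjusted p = 1.0). Both probe sets carry the same cluster number in their names, so they may read overlapping sequence and are not independent.

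MRPS16, a counterpart of a bacterial ribosomal protein whose human variants cause respiratory chain deficiency, was the other gene without overlap. It stood at 0.947, 2.39 and 1.73 millionths in restricted steers, against -4.62, 0.276 and -0.722 millionths in supplemented steers. Supplemented steer 1 lay far below the other 5 steers, and the difference was 1.78 SDs (limma unadjusted p = 0.0753, adjusted p = 1.0). MRPS22, a protein found only in mitochondrial ribosomes and linked to human cardiomyopathy, stood at 0.304, 0.126 and 0.675 millionths in restricted steers and at -0.919, -0.321 and 0.136 millionths in supplemented steers. Supplemented steer 3 lay just above restricted steer 2, so the groups overlapped, and the difference was 1.74 SDs (limma unadjusted p = 0.0805). MRPS6, MRPS30 and MRPS11 followed with 1.43, 1.40 and 1.17 SDs and overlapping groups. On the lower side the small subunit held MRPS24, at -0.730 SDs, as its most negative gene.

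**Figure D2:**
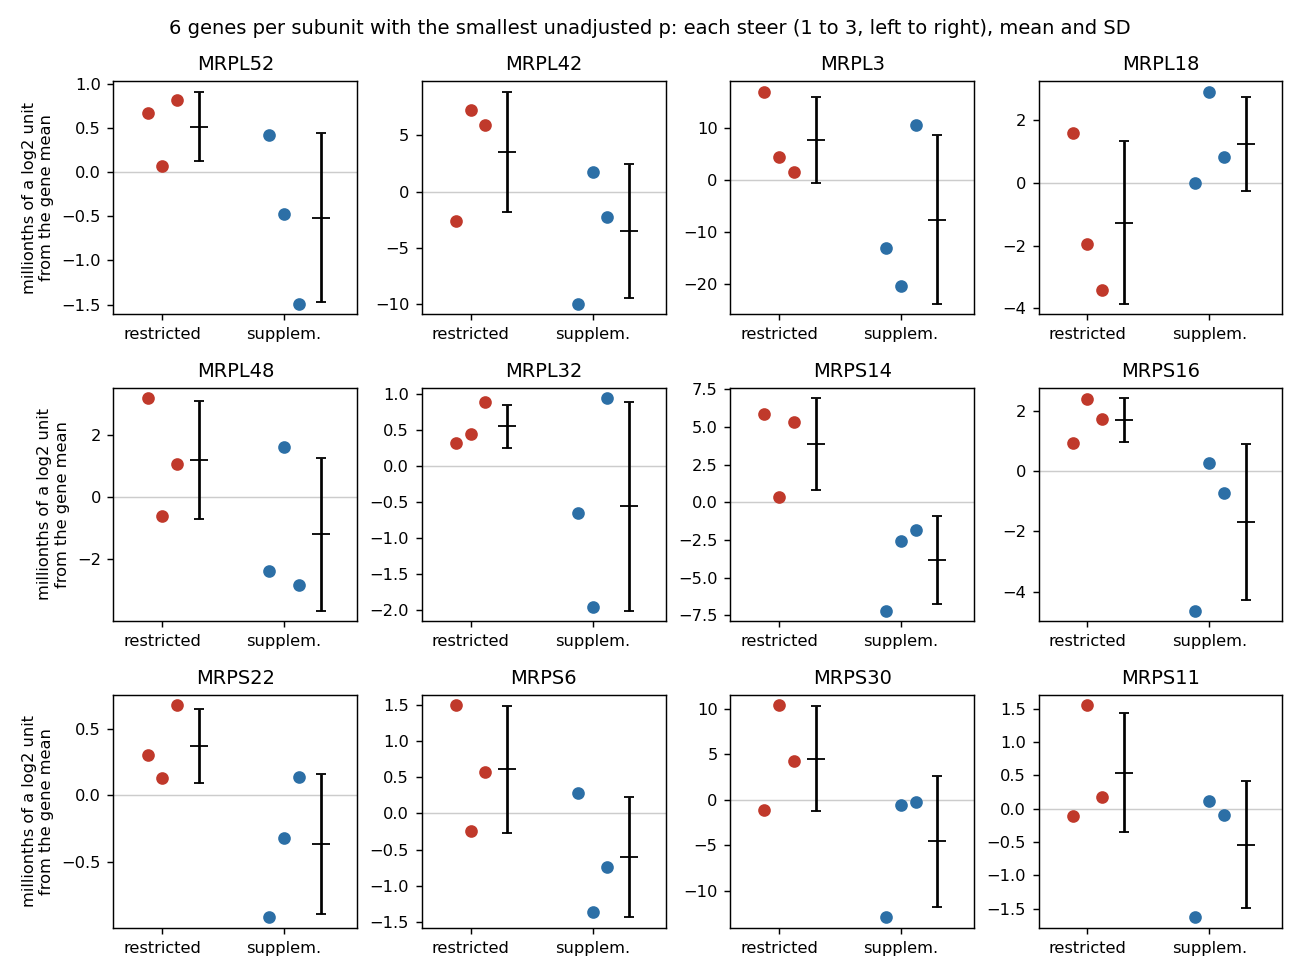
Deviation of each steer from the mean of the gene, in millionths of a deposited log2 unit (vertical axes differ between panels), for the 6 large and 6 small subunit genes with the smallest unadjusted p; points are restricted (red) and supplemented (blue) steers 1 to 3, bars the mean and SD (n = 3). The groups are apart in MRPS14 and MRPS16 and overlap in the other 10 panels.

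Among large subunit genes, MRPL52 had the largest difference, at 1.41 SDs. It stood at 0.665, 0.0677 and 0.815 millionths in restricted steers and at 0.417, -0.475 and -1.49 millionths in supplemented steers, and differs from most members in that supplemented steer 3 was its lowest. MRPL42 and MRPL48, which have no bacterial counterpart, differed by 1.24 and 1.09 SDs. MRPL3, a conserved protein that reaches towards the catalytic centre, stood at 16.9, 4.45 and 1.54 millionths in restricted steers and at -13.0, -20.4 and 10.5 millionths in supplemented steers. Here supplemented steers 1 and 2 were low and steer 3 lay among the restricted ones, with a difference of 1.19 SDs (limma unadjusted p = 0.189). MRPL32, which in yeast and mice is cut by an inner membrane protease before it joins the ribosome, differed by 1.06 SDs. MRPL18 was the 1 gene among the 12 with the smallest p that was lower in restricted steers, at 1.61, -1.96 and -3.43 millionths against 0.0100, 2.92 and 0.848 millionths in supplemented steers (-1.19 SDs, limma unadjusted p = 0.190). None of these large subunit genes separated the diets. Without supplemented steer 1 the difference in MRPL52 was 2.85 SDs, and without supplemented steer 3 it was 3.33 SDs in MRPL3 and 3.19 SDs in MRPL32. Without restricted steer 1 it was -2.90 SDs in MRPL18, and without supplemented steer 2 it was 2.44 SDs in MRPL48. Equal array medians, which lowered the diet difference of all genes, also turned MRPL52, MRPL32, MRPS22, MRPS6 and MRPS11 to lower in restricted steers, which follows from the shift.

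Proteins of the stalk, which recruits translation factors to the large subunit, differed by less than 1 SD. MRPL12, which forms the stalk and also binds the mitochondrial RNA polymerase, stood at 0.586, -0.187 and 0.0113 millionths in restricted steers, against -2.09, -1.47 and 3.15 millionths in supplemented steers. The supplemented steers thus held both the lowest and the highest values, with all restricted steers between them, and the difference was 0.134 SDs. MRPL10, which anchors MRPL12, and MRPL11, at the base of the stalk, differed by 0.398 and 0.802 SDs. MRPL45, which lies at the tunnel exit and ties the ribosome to the inner membrane, stood at 0.682, 0.470 and 1.04 millionths in restricted steers and at -1.99, -1.75 and 1.55 millionths in supplemented steers (1.03 SDs, limma unadjusted p = 0.245). Supplemented steer 3 decided this value, which was 10.2 SDs without that steer (limma unadjusted p = 0.000599, adjusted p above the threshold). The other supplemented steers lay close together, so most of this rise came from a smaller SD and not from a larger difference. MRPL44, whose human variants cause cardiomyopathy, differed by 0.761 SDs, and MRPL58, which can release chains from stalled ribosomes, by -0.161 SDs.

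Several genes with an MRPS symbol do not sit in the small subunit as their name says. In mitochondrial ribosome structures MRPS18A and MRPS30 belong to the large subunit, and MRPS36 is a part of the oxoglutarate dehydrogenase complex of the citric acid cycle. MRPS18A differed by 0.264 SDs and its paralog MRPS18B, a small subunit protein, by -0.590 SDs. MRPS30 stood at -1.08, 10.4 and 4.31 millionths in restricted steers and at -12.9, -0.609 and -0.181 millionths in supplemented steers, with supplemented steer 1 far below the rest. MRPS36 stood at 6.18, 24.9 and -6.36 millionths in restricted steers and at -17.8, -18.7 and 11.8 millionths in supplemented steers, a difference of 0.995 SDs. With MRPS18A and MRPS30 moved and MRPS36 left out, the counts higher in restricted steers were 29 large and 15 small subunit genes, with medians of 0.264 and 0.164 SDs. MRPS7, of the head of the small subunit, and MRPS27, an RNA-binding protein of the small subunit, differed by 0.169 and 0.0915 SDs.

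Of the supplemented steers, steer 1 stood out at the low end of these genes and steer 3 at the high end. Supplemented steer 1 was the lowest of the 6 steers in 33 of 67 genes (49.3%, against 18.7% of all genes) and the highest in 0. Supplemented steer 3 was the highest in 29 (43.3%, against 20.7% of all genes) and the lowest in 2. Supplemented steer 3 lay above supplemented steer 1 in 61 of 67 genes, against 54.0% of all genes. The gap between these 2 steers exceeded the difference of the diet means in 59 of 67 genes, against 69.9% of all 9155 genes for which it did. In 19 of the 67 genes all 3 restricted steers lay between them, against 7.31% of all genes. MRPL22, which lines the exit tunnel, shows this most plainly, at -5.51, 4.41 and 0.611 millionths in restricted steers, against -64.5, 15.8 and 49.2 millionths in supplemented steers, and its diet difference was -0.00788 SDs.

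Large and small subunit genes shared this order of steers. A score, the mean over genes of each gene's deviation in SDs over the 6 arrays, was for the large subunit -0.00712, 0.256 and 0.202 in restricted steers 1 to 3 and -0.778, -0.388 and 0.716 in supplemented steers 1 to 3. For the small subunit it was 0.175, 0.238 and 0.157 in restricted and -1.02, -0.347 and 0.795 in supplemented steers. As deposited, restricted steers thus lay close together between supplemented steers 2 and 3 in both subunits. With equal array medians restricted steer 1 scored -0.896 in the large and -0.768 in the small subunit. It then lay below supplemented steer 2, at -0.158 and -0.2. The median correlation of 2 mitochondrial ribosomal protein genes over the 6 arrays was 0.356, within the large subunit 0.308, within the small subunit 0.389 and between the subunits 0.383, against 0.00424 for all pairs of genes. These are descriptions over 6 arrays that share their normalization. Within-group SDs were wider in supplemented than in restricted steers in 48 of 67 genes (71.6%), against 52.6% of all genes, and wider in restricted steers in the other 19. They were wider in supplemented steers in 86.5% of subunits of respiratory complex I and 71.4% of those of complexes II to V. For cytosolic ribosomal proteins the share was 31.7%. The wider SD is thus not particular to these genes. The median SD was 2.49 millionths in restricted and 2.17 millionths in supplemented steers for the large subunit, and 2.26 millionths in restricted and 2.97 millionths in supplemented steers for the small subunit.

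**Figure D3:**
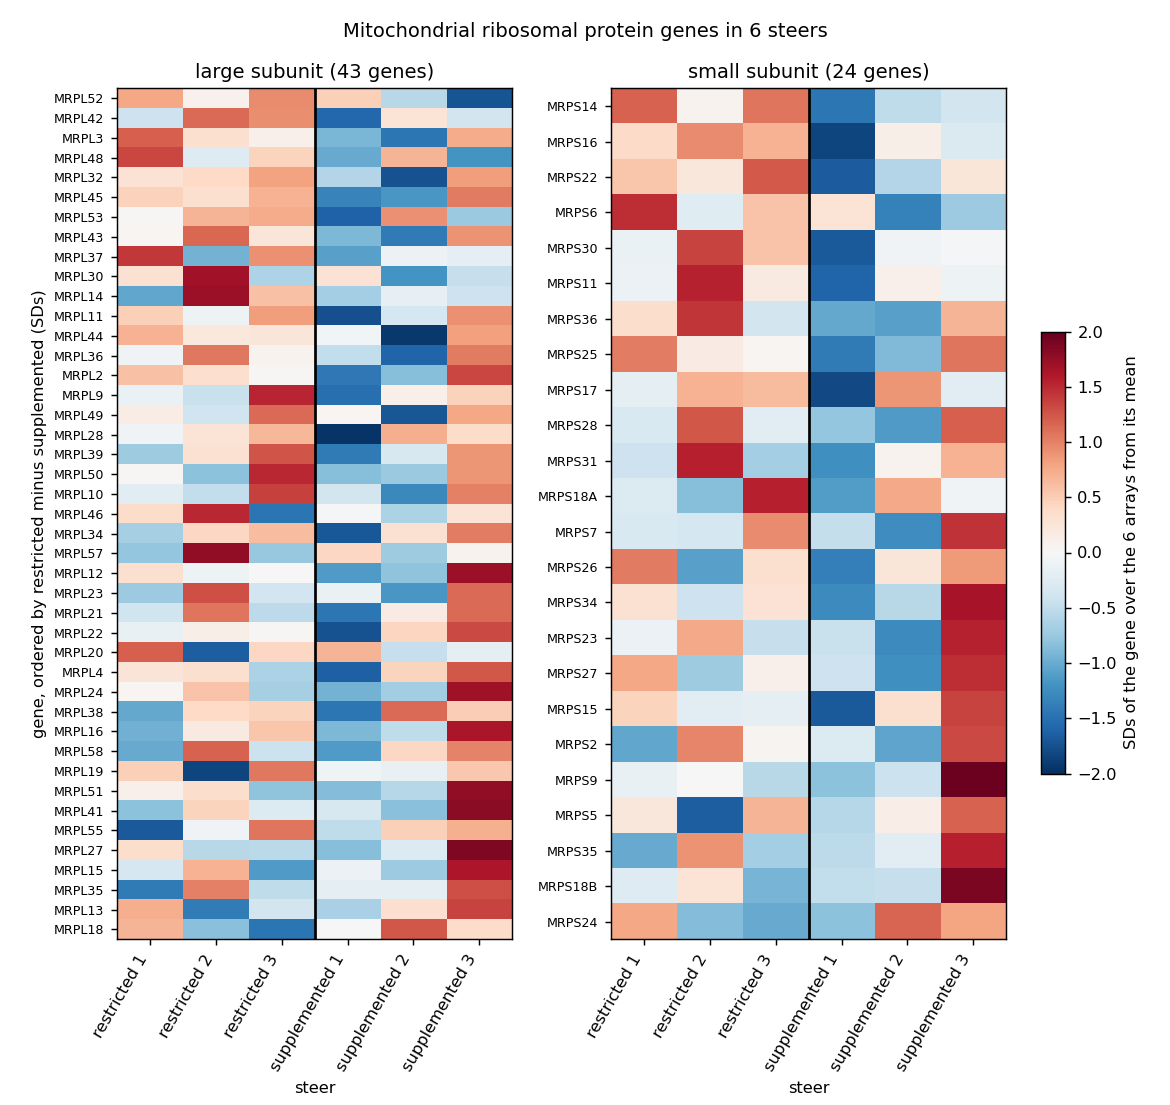
Deviation from the mean of the gene in SDs over the 6 arrays (colour, red high and blue low) for 43 large and 24 small subunit genes (rows, by diet difference from top to bottom) in restricted steers 1 to 3 and supplemented steers 1 to 3 (columns; the line parts the diets). Supplemented steer 1 is mostly blue and supplemented steer 3 mostly red, being lowest in 33 and highest in 29 of the 67 genes.

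With equal array medians restricted steer 1 moved to the low end, in these genes as in all genes. Scores of the 67 genes were then -0.85, 0.401 and 0.0287 in restricted and -0.844, -0.173 and 1.44 in supplemented steers. As deposited, restricted steer 1 scored 0.058. By score, the other steers kept their order in these genes. Supplemented steer 3 was then the highest in 61 of 67 genes (91.0%) and in 85.5% of all genes, and restricted steer 1 the lowest in 40 (59.7%) and in 80.2% of all genes. Supplemented steer 1 was the lowest in 20 of 67 (29.9%), against 7.77% of all genes. Array medians stood at 4.11, -1.15 and 0.375 millionths in restricted steers and at 1.34, 0.0912 and -4.76 millionths in supplemented steers, from their common mean. In supplemented steers, steer 1 was also the youngest and steer 3 the oldest, and with age as a covariate 56 of 67 genes were higher in restricted steers (83.6%, against 52.5% of all genes). The part of age in the order of steers was not tested.

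The genes with the widest and the narrowest range differed between the diets by less than 1 SD. MRPL35 stood at -89.9, 64.1 and -32.3 millionths in restricted steers and at -11.3, -12.3 and 81.7 millionths in supplemented steers, so both diets held high and low values (-0.578 SDs), with an SD of 77.8 millionths in restricted and 54.0 millionths in supplemented steers. MRPL51, the next widest after it, stood at 5.69, 19.7 and -44.2 millionths in restricted steers and at -48.2, -31.2 and 98.2 millionths in supplemented steers (-0.204 SDs). The narrowest were MRPL46, MRPS34 and MRPL39, with ranges of 0.0940, 0.554 and 0.597 millionths and differences of 0.247, 0.103 and 0.529 SDs. The value of MRPL39 depended on the model, at 4.62 SDs with age as a covariate (limma unadjusted p = 0.0139, adjusted p = 1.0). MRPL46 and MRPS11 are neighbours in the gene order of the ARS-UCD2.0 annotation, the 1 such pair among these genes, and differed by 0.247 and 1.17 SDs.

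In 14 of the 67 genes 2 or 3 probe sets were measured, and in 5 of these they disagreed in direction. MRPL39 had 3 probe sets, at 0.529 SDs for the representative one and 1.43 and -1.22 SDs for the others. The 2 probe sets of MRPL46 differed by 0.247 and -1.11 SDs, those of MRPS35 by -0.499 and 0.676 SDs, those of MRPS2 by -0.00433 and 0.812 SDs and those of MRPL57 by 0.139 and -0.00311 SDs. For MRPS2 and MRPL57 at least 1 of the values is practically 0. In the other 9 genes the probe sets ran the same way, among them MRPS14.

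Other genes of mitochondrial translation gave no adjusted call either. Of mitochondrial ribosomal proteins with other names, 3 of 5 measured genes were higher in restricted steers, and AURKAIP1, a small subunit protein, had the smallest p (1.79 SDs, limma unadjusted p = 0.0735). Without supplemented steer 3 AURKAIP1 differed by 5.12 SDs (limma unadjusted p = 0.00582). Translation factors had 9 of 11 higher, with MTIF2, the initiation factor, at 2.07 SDs and no shared range of the diets (limma unadjusted p = 0.183). Its range was 0.098 millionths, which is very narrow. Aminoacyl-tRNA synthetases of mitochondria, which charge the transfer RNAs, had 7 of 15 higher, with VARS2 at -1.36 SDs (limma unadjusted p = 0.146). Ribosome assembly and RNA modification factors had 11 of 18 higher. RBFA, which helps to mature the small subunit RNA, stood at 0.0385, 0.369 and 0.183 millionths in restricted steers and at -0.00250, -0.395 and -0.191 millionths in supplemented steers (2.16 SDs, limma unadjusted p = 0.0447, adjusted p = 1.0). The mean deposited value of RBFA was 5.1277, below the median of 5.33 for all genes. Its range of 0.764 millionths was less than the 8.88 millionths between array medians. Without restricted steer 2 the difference in RBFA was 1.80 SDs (limma unadjusted p = 0.117). The call was also lost without restricted steer 3 (limma unadjusted p = 0.101), supplemented steer 2 (limma unadjusted p = 0.106) or supplemented steer 3 (limma unadjusted p = 0.103). It held without restricted steer 1 or supplemented steer 1. Genes of mitochondrial DNA transcription and replication had 3 of 8 higher, with the elongation factor TEFM at 1.90 SDs (limma unadjusted p = 0.0631). Regulators of nuclear genes for mitochondria had 2 of 5 higher, with the coactivator PPARGC1A at 0.969 SDs (limma unadjusted p = 0.270).

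Subunits of the respiratory chain and the cytosolic ribosome are given for comparison. Complex I had 32 of 37 genes higher in restricted steers with a median of 0.661 SDs, complexes II to V 38 of 42 with 0.946 SDs, and cytosolic ribosomal proteins 53 of 63 with 0.763 SDs. Each median lay above the 0.247 SDs of the mitochondrial ribosomal protein genes, and no difference between the groups was tested. Complex I scores were 0.215, 0.662 and 0.121 in restricted and -1.28, -0.459 and 0.740 in supplemented steers. The order of supplemented steers was the one seen in the mitochondrial ribosome. Supplemented steer 1 was the lowest steer in 70.3% of complex I genes and 73.8% of genes of complexes II to V. In the mitochondrial ribosomal protein genes that share was 49.3%. Cytosolic ribosomal protein scores were 0.774, -0.548 and 0.781 in restricted and 0.0334, -0.501 and -0.539 in supplemented steers, another order in both diets. The median correlation over the 6 arrays of a mitochondrial ribosomal protein gene was 0.474 with a complex I gene, 0.409 with a gene of complexes II to V and -0.0513 with a cytosolic ribosomal protein gene, again as a description.

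**Figure D4:**
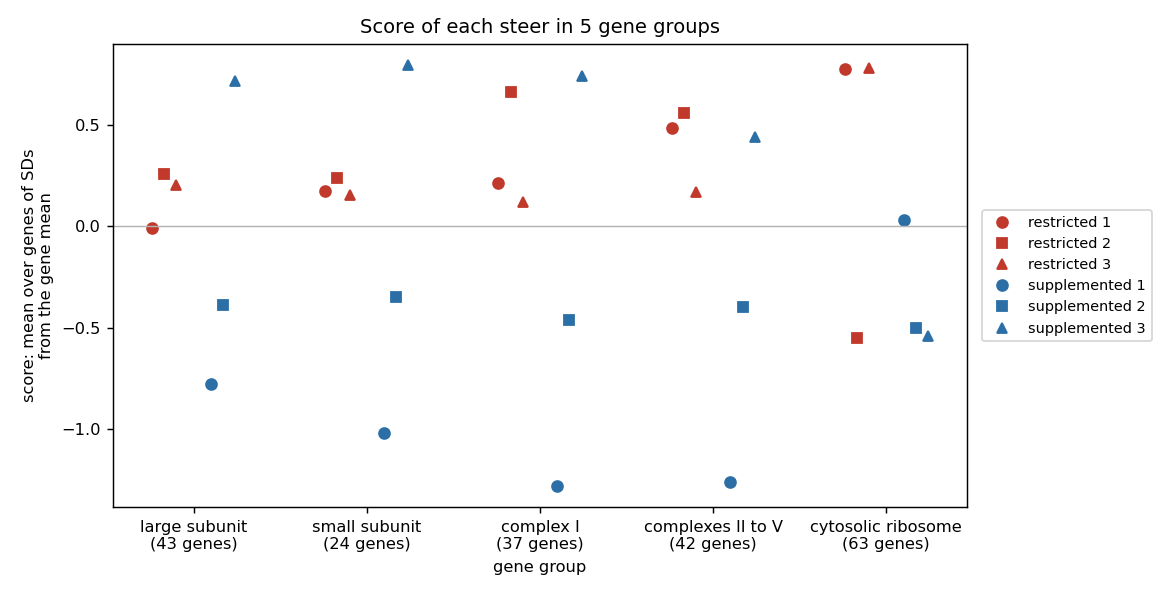
Score of each steer (vertical axis, mean over the genes of a group of the deviation in SDs over the 6 arrays) in 5 gene groups (horizontal axis), restricted steers in red left of supplemented steers in blue, with a circle, square and triangle for steers 1, 2 and 3. Supplemented steer 1 is lowest in both mitochondrial ribosomal subunits and in the respiratory complexes but not in the cytosolic ribosome, where it stands at 0.0334.

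Scores of cell type markers also differed between steers. All 7 measured adipocyte markers were higher in restricted steers, with scores of 1.16, -0.227 and 0.724 in restricted and 0.0509, -0.940 and -0.763 in supplemented steers. Their summed level deviated by -8350 to 21100 millionths in restricted and by -25300 to 8260 millionths in supplemented steers. Of 9 skeletal muscle markers 1 was higher, with scores of -0.364, -0.480 and -0.217 in restricted and 0.380, -0.0667 and 0.749 in supplemented steers. Supplemented steer 3 thus had the highest score in muscle markers as in the mitochondrial ribosomal protein genes, whose score there was 0.744. The other steers did not share an order. Supplemented steer 1 scored 0.380 in muscle markers but was the lowest steer in the mitochondrial ribosomal protein genes. Restricted steers all scored below the mean in muscle markers and above it in those genes. By summed level, restricted steer 1 was highest in muscle markers, at 317 millionths, with supplemented steer 3 at 252 millionths. The 4 fibroblast markers, collagens and small proteoglycans, had their highest score in supplemented steer 1, at 1.49, and low ones in supplemented steers 2 and 3, at -0.952 and -0.623. Macrophage markers (4 of 5 measured) and nerve markers (2 of 4 measured) also scored highest in supplemented steer 1, at 0.771 and 0.875. Only 1 of the 2 nerve genes was itself highest there. Markers of endothelium (4 measured) and of red blood cells (2 measured) went the other way in that steer, at -0.297 and -0.402. The mitochondrial ribosomal protein genes scored lowest in it, at -0.864. The part of these cells in the values of mitochondrial ribosomal protein genes was not tested.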

How the data were processed

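Per the labels' protocols, RNA was extracted with Trizol, purified on RNeasy columns, and 100 ng was labelled with biotin for a 3 prime Affymetrix array. The deposited table held 24128 probe sets for 6 arrays, taken here as log2 values of the authors, and how they were background-corrected, normalized and summarized is not stated in the labels. No molecule counts exist for arrays, so precision depends on having 6 of them.

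The 112 control probe sets were dropped. The other 24016 were multiplied by 1e+09 and analysed in R 4.3.3 with limma version 3.58.1 (lmFit and eBayes, no trend, 4 residual and 0.483 prior degrees of freedom), as restricted minus supplemented. P-values were adjusted by Benjamini-Hochberg over all 24016 with a threshold of 0.05. The procedure was tested on simulated data with shifts far larger than the differences of these genes as deposited. That test does not show whether differences of the size seen here would be found. Differences in SDs divide by the residual SD of the same fit. The unit therefore changes between alternatives, and a large value can come from a small SD. Symbols came from the platform annotation, which names 13292 tested probe sets with 1 gene, 86 with several and 10638 with none. The members and lists were chosen with earlier results of these data known.

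Named genes are, by rule, 6 per subunit with the smallest unadjusted p, members with a distinct role, the 3 widest and 3 narrowest ranges, members whose probe sets disagree, and up to 3 of each related list. Of the related lists, the gene with the smallest p was named. DHRS3, MRPL2, MRPL9, MRPL43, MRPS24 and MRPS25 were named after their values were seen. Alternatives were 2 normalizations, the replicate number as a block, age, array weights, a variance trend, a level filter, averaged probe sets, subunits from structures, and each steer left out. Same-numbered steers of the 2 diets correlated at 0.039, 0.0141 and 0.0171 after removal of group means, so the numbers were not taken as pairs. Sequences of these genes were not used here.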

Additional observations from a re-analysis of the deposited data

How the results depend on the processing

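Of 516 values of 38 named genes under an alternative, 443 kept their direction, 6 were 0 under quantile normalization and 67 reversed, 20 of them with equal array medians and 47 otherwise. The level filter, the variance trend and the replicate block leave the difference of the diet means unchanged, so no direction could reverse there. Averaged probe sets likewise change nothing in genes with a single probe set. The count of kept directions is therefore not a measure of robustness. Of the 10 genes that reversed under none, 5 had no value under quantile normalization and 4 a difference of 0 there. The cause was not tested except where stated. With equal array medians 0 of the 67 genes had an unadjusted limma p under 0.05 (all genes 1.4%), and 15 genes were higher in restricted steers, 8 large and 7 small subunit. That scaling lowers the diet difference of all genes by the same amount (median of all genes -0.737 SDs). The reversals there thus follow from the shift and do not bear on single genes: the difference in SDs turned to -0.494 in MRPL52, -0.297 in MRPL32, -0.458 in MRPS22, -0.4 in MRPS6 and MRPS18A, -0.313 in MRPS11, -0.105 in MRPL10, -0.0338 in MRPL11, -0.424 in MRPL12, -0.292 in MRPL44, -0.184 in MRPL45, -0.366 in MRPS7, -0.699 in MRPS27, -0.742 in MRPL46, -0.708 in MRPS34, -0.659 in MRPL39, -0.671 in MRPL57, -0.727 in MTIF2, -0.603 in RBFA and -0.201 in PPARGC1A. Quantile normalization made 15456 probe sets equal on all arrays, so 32 of the 67 genes had no test. Of the other 35, 15 were higher (42.9%, against 37.0% of all genes tested there), 9 large and 6 small subunit, and 6 had a difference of 0. The median was 0 SDs over both subunits and in the large subunit, and -0.816 SDs in the small subunit. There 22 probe sets passed the threshold, 1 of them for a mitochondrial ribosomal protein, MRPL57. It was also the 1 gene of the 35 with an unadjusted limma p under 0.05 (2.86%, against 0.401% of all genes tested there). MRPL57 had 1 distinct value within each diet, so no spread was left. Its difference was 393 millionths there, against 0.066 millionths as deposited (limma unadjusted p = 0.865). This call is not read as a diet effect. MRPS16, MRPS36 and MTIF2 turned to -0.816 and MRPL44 to -0.577. With age as a covariate 0 probe sets passed, 4 of the 67 genes, MRPL9, MRPL39, MRPS14 and MRPS22, had an unadjusted limma p under 0.05 (5.97%, all genes 4.34%), and the difference turned to 0.318 in MRPL58, -0.404 in MRPL46, 0.829 in MRPL22, 0.0269 in MRPL51, -0.167 in MRPL57 and 0.421 in MRPS2. Array weights turned MRPL22 to 0.0717 and MRPS2 to 0.0663. Averaged probe sets turned MRPL46 to -1.1, MRPL57 to -0.000801 and MRPS2 to 0.0336. With the replicate block 0 probe sets passed the limma threshold and 3 of the 67 genes had an unadjusted p under 0.05 (4.48%, all genes 5.85%), and 45 genes were higher. MRPS14 was not among the 3 (limma unadjusted p = 0.0781). MRPL39 differed by 4.68 SDs there (limma unadjusted p = 0.0608).

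With each steer left out in turn, 1 to 2 probe sets passed, 2 without supplemented steer 3, and 0 to 9 of the 67 genes had an unadjusted limma p under 0.05 (0 to 13.4%, all genes 4.0% to 5.75%). Small subunit genes higher numbered 10 without supplemented steer 1 to 22 without supplemented steer 3, with medians of -0.0612 to 1.26 SDs. Differences ran from -0.152 to 1.15 SDs in MRPL10, -0.367 to 4.64 in MRPL12, -0.00216 to 1.73 in MRPL44, -0.877 to 0.251 in MRPL58, -0.395 to 1.42 in MRPS7, -0.515 to 0.74 in MRPS18A, -0.953 to 0.338 in MRPS18B, -0.494 to 1.25 in MRPS27, -0.489 to 1.79 in MRPL46, -0.517 to 2.17 in MRPS34, -0.000794 to 1.25 in MRPL39, -2.3 to 0.732 in MRPL22, -0.668 to 1.18 in MRPL51, -1.47 to 0.513 in MRPL57, -0.506 to 0.74 in MRPS2 and -1.2 to 0.128 in MRPS35. Without a change of sign they ran from 0.606 to 10.2 in MRPL45, 1.41 to 5.12 in AURKAIP1, 2.12 to 3.94 in MRPS14, 0.758 to 3.33 in MRPL3, 0.592 to 3.19 in MRPL32, 0.191 to 2.12 in MRPL11 and 0.541 to 2.06 in MRPS36, the highest each without supplemented steer 3 except in MRPS14, where it was without restricted steer 2. With 3 steers a diet and this narrow spread, a difference that missed the threshold is not shown to be absent.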
